A study of Mus musculus with 6 samples.

Results

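The clustered protocadherins were examined gene by gene in whole brain RNA of 3 mice fed a diet containing PLDP (PLDP mice) and 3 mice fed a control diet (control mice). They are cadherin-like cell surface proteins encoded by alpha, beta and gamma clusters that lie side by side on mouse chromosome 18. Members were chosen by symbol alone, as the annotated genes named Pcdha, Pcdhac, Pcdhb, Pcdhga, Pcdhgb or Pcdhgc and a number. The rule found 57 genes among the 60354 features of each count file, of which 13 belong to the alpha cluster, 22 to the beta cluster and 22 to the gamma cluster. A second annotated gene model that also carries the symbol Pcdha11 has no row and was not analysed here.

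PLDP is a protease-treated decomposition product of porcine liver. All mice were C57BL/6NCrSlc males that started the diets at 16 weeks of age and stayed on them for 16 weeks. PLDP mice (numbers 17, 22 and 26) ate a modified AIN-93M feed of which 20% was PLDP, and control mice (numbers 2, 5 and 10) ate modified AIN-93M feed whose calories were adjusted to match. RNA was taken after a series of behavioral tests in which every mouse took part, and the PLDP diet was no longer given during those tests. The comparison therefore addresses expression in the brain after long-term ingestion and after its end. Each library is 1 mouse, so replicates are biological, but whole brain pools all regions and cell types. In such a sample, fewer cells of a type and less RNA per cell cannot be told apart.

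Each clustered protocadherin has its own promoter and a large variable exon that encodes the extracellular cadherin repeats. In the alpha and gamma clusters the variable exon is spliced to a common set of constant exons that encode the end of the cytoplasmic tail, whereas beta genes lack constant exons. Most members are chosen stochastically, so that each neuron uses a small combination of them, and the proteins recognise identical combinations on neighbouring membranes. This recognition is known for keeping the branches of a neuron apart and for guiding axon spacing, while the C-type genes at the end of the alpha and gamma clusters are used more uniformly across neurons. The factor CTCF and the cohesin complex loop an enhancer to the chosen promoter, and DNA methylation silences promoters that are not chosen.

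In the GRCm38 annotation the alpha genes span positions 36930184 to 37187661 of chromosome 18, the beta genes 37264938 to 37524479 and the gamma genes 37661793 to 37841873, all on the forward strand. The variable exons resemble each other to an extent that differs between clusters. Median pairwise identity was 77.5% among the alpha genes (78 pairs, range 59.8% to 84.3%), 72.7% among the beta genes (231 pairs, range 61.8% to 86.9%) and 63.7% among the gamma genes (231 pairs, range 59.2% to 81.7%). Pairs of genes from different clusters were not aligned. Within their own cluster the 5 C-type genes stood farthest from the rest, with an identity to their nearest relative there of 62.0% to 64.2%. Pcdhb1 was next at 64.3%, and each of the other 51 genes had a relative in its cluster at 72.6% or more.

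This structure limits what a count per gene can hold. All alpha genes share their last exons with the 13 other alpha models and all gamma genes with the 21 other gamma genes, whereas all 22 beta genes have a single exon. Between 48.6% and 93% of the exon length of an alpha gene, and between 31.5% and 100% of that of a gamma gene, overlapped another annotated gene on either strand. Of the 22 beta genes, 19 had no such overlap. Pcdha9 was listed at 0 in every mouse although 53.5% of its exon length is shared, so reads in shared exons had not been added to every gene that holds them. The alpha and gamma values therefore describe mainly the variable exons. Every exonic base of Pcdhga10 lies under another gene on one strand or the other, yet it had counts in all 6 mice, so genes on the opposite strand had not removed its reads. Stretches of 150 bases, the length of a read, that occur unchanged in another gene made up 96.1% of such stretches in the variable exon of Pcdha4 and 36.2% in that of Pcdhga4. In the other 55 genes they made up 8.12% at most, and 37 genes had none.

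Libraries held 18797061 to 23938729 counts, of which 7789 to 10949 counts per mouse, or 0.0393% to 0.0457%, fell on the clustered protocadherins. Levels are given as CPM, counts divided by library size after trimmed mean of M-values (TMM) scaling. A gene with 0 counts could still have had 0.126 to 0.160 CPM, the level of 3 counts in the deepest and the shallowest library. That limit covers counting error only. The neuronal markers Snap25, Syt1, Rbfox3, Stmn2 and Nefl were all present and summed to 4117 to 4261 CPM in the 6 mice. Of the 57 genes, 54 had at least 1 count, and 50 passed the filter on low counts: 9 alpha, 21 beta and 20 gamma genes. Pcdha9, Pcdhgb1 and Pcdhga4 were listed at 0 in all 6 mice, and Pcdha4 had 1 count in control mouse 2 and none elsewhere. Pcdha7, Pcdha8 and Pcdhb1 had 25, 42 and 31 counts over the 6 mice and were not tested.

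The gamma cluster gave most of the signal. It supplied 58.3% of the CPM of all members, the beta cluster 32.0% and the alpha cluster 9.67%, as means over the 6 mice. In control mice 2, 5 and 10 the alpha genes summed to 43.2, 39.4 and 42.4 CPM, and in PLDP mice 17, 22 and 26 to 39.5, 42.0 and 41.0 CPM. The beta genes summed to 138.9, 133.9 and 139.6 CPM in the control mice and to 129.5, 142.8 and 134.6 CPM in the PLDP mice. The gamma genes summed to 253.8, 248.6 and 256.2 CPM in the control mice and to 223.4, 274.3 and 240.6 CPM in the PLDP mice. In each cluster the values of the 2 diets overlapped, and for beta and gamma PLDP mouse 17 was the lowest and PLDP mouse 22 the highest of all 6. The division among clusters varied little from mouse to mouse, with a gamma share of 56.9% to 59.8%, a beta share of 31.1% to 33.0% and an alpha share of 9.14% to 10.1%.

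**Figure D1:**
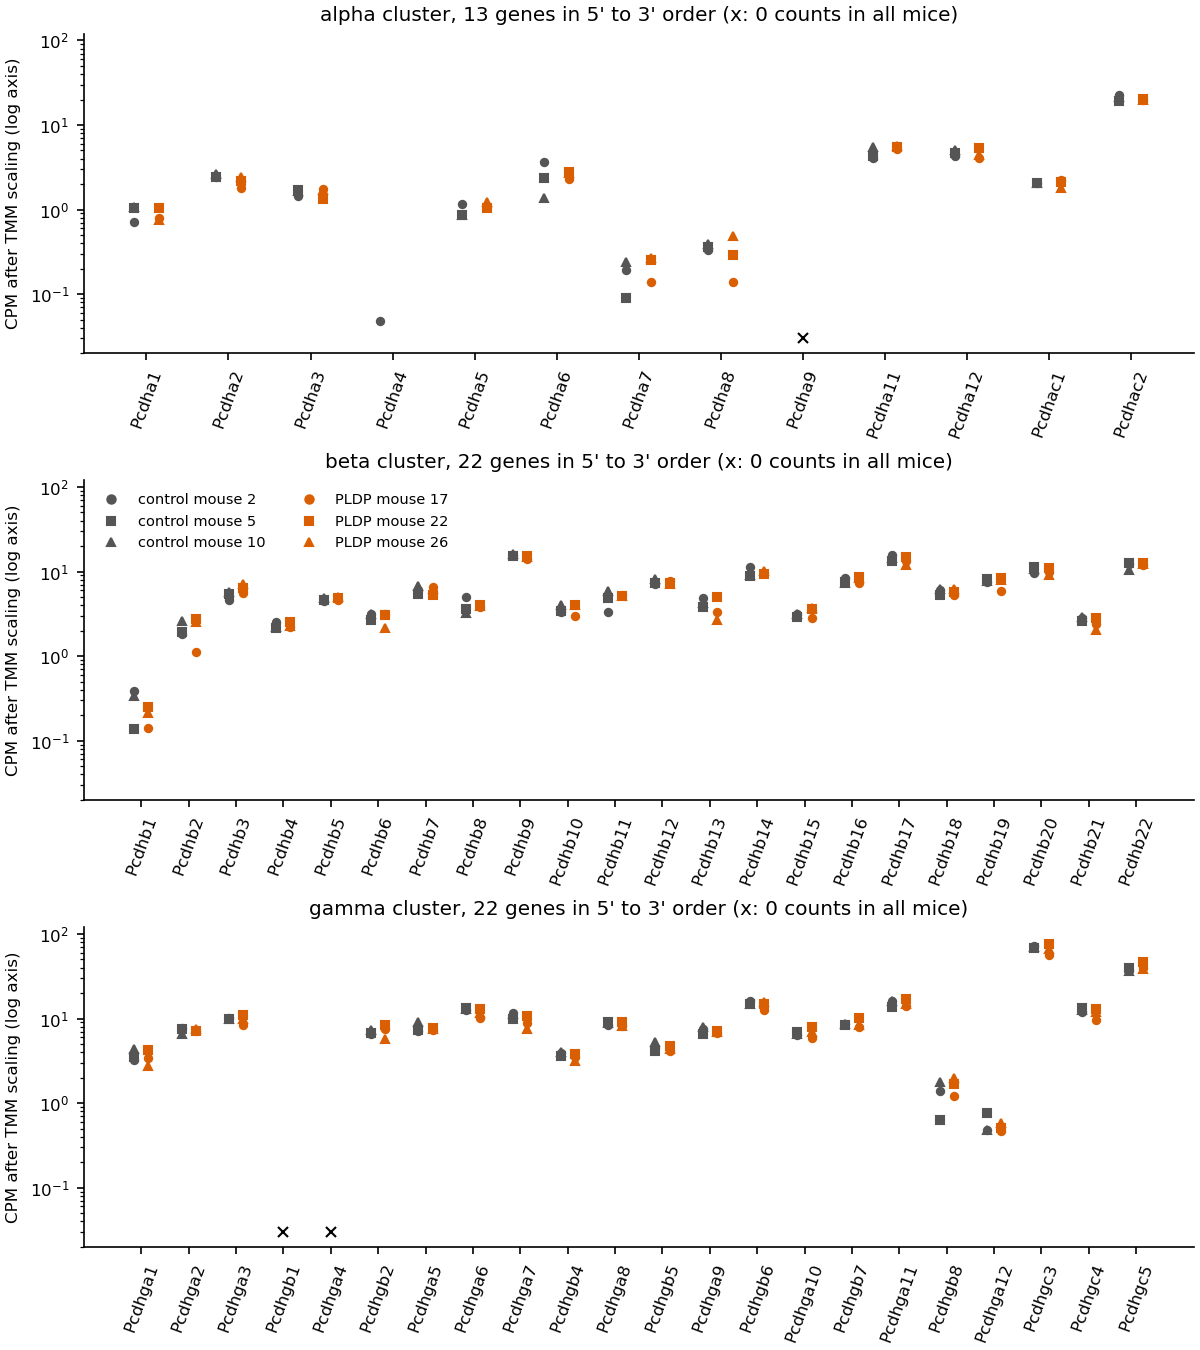
CPM of each clustered protocadherin gene (log axis) in order along the alpha, beta and gamma clusters, 1 point per mouse, grey for control and orange for PLDP mice, with a cross for the 3 genes at 0 counts in all mice. Points of the 2 diets lie on each other for nearly every gene, while genes of 1 cluster span from under 1 CPM to, for Pcdhgc3, 56.9 to 75.5 CPM.

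Levels between genes were compared per length only, as CPM per kb of exon that no other gene on the same strand shares, and each level is a mean over the 6 mice. Pcdhgc3, a gamma C-type gene, had the highest level at 20.2 ± 1.88 CPM per kb (SD, n = 6), which is 17.6 times the median of the genes that are not C-type (1.15 CPM per kb). Pcdhgc5 followed with 8.67 ± 0.81 CPM per kb and Pcdhac2, the last gene of the alpha cluster, with 6.80 ± 0.44 CPM per kb. These first 3 genes did not overlap in their mouse values with the gene ranked after them. Next came Pcdhgb6 at 5.80 ± 0.49, Pcdhga11 at 5.78 ± 0.49 and Pcdhb9 at 5.00 ± 0.20 CPM per kb, followed by Pcdhga6 at 4.67 ± 0.42 CPM per kb. From Pcdhgb6 down to Pcdhga7, ranked 12th at 3.20 ± 0.51 CPM per kb, each gene overlapped in its mouse values with the next. These levels depend on the length used. Pcdhgc3 stayed first with total exon length (12.4 CPM per kb) and with exon free of genes on both strands (37.6 CPM per kb). Pcdhac2 moved to rank 4 with either length, behind Pcdhb9 at rank 3 with total exon length, and Pcdhga11 moved to rank 2 with exon free on both strands.

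The C-type genes differed widely among themselves. Pcdhgc4 had 3.47 ± 0.37 CPM per kb and ranked 9th of all members, and Pcdhac1 had only 0.81 ± 0.054 CPM per kb and ranked 41st. Among genes that are not C-type, the median level was 0.65 CPM per kb for 9 alpha genes (range 0.092 to 1.88), 1.15 for 22 beta genes (range 0.094 to 5.00) and 2.84 for 17 gamma genes (range 0.12 to 5.80), leaving out the 4 genes with at most 1 count. Within the gamma cluster the A-type genes had a median of 3.04 CPM per kb (n = 11, range 0.12 to 5.78). The B-type genes had a median of 1.78 CPM per kb (n = 6, range 0.58 to 5.80), and the 2 ranges overlapped. Level followed position along a cluster only weakly, with Spearman's rho of 0.30 for the 9 alpha genes, 0.28 for the 22 beta genes and -0.14 for the 17 gamma genes. These coefficients are descriptions across genes of the same libraries.

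**Figure D2:**
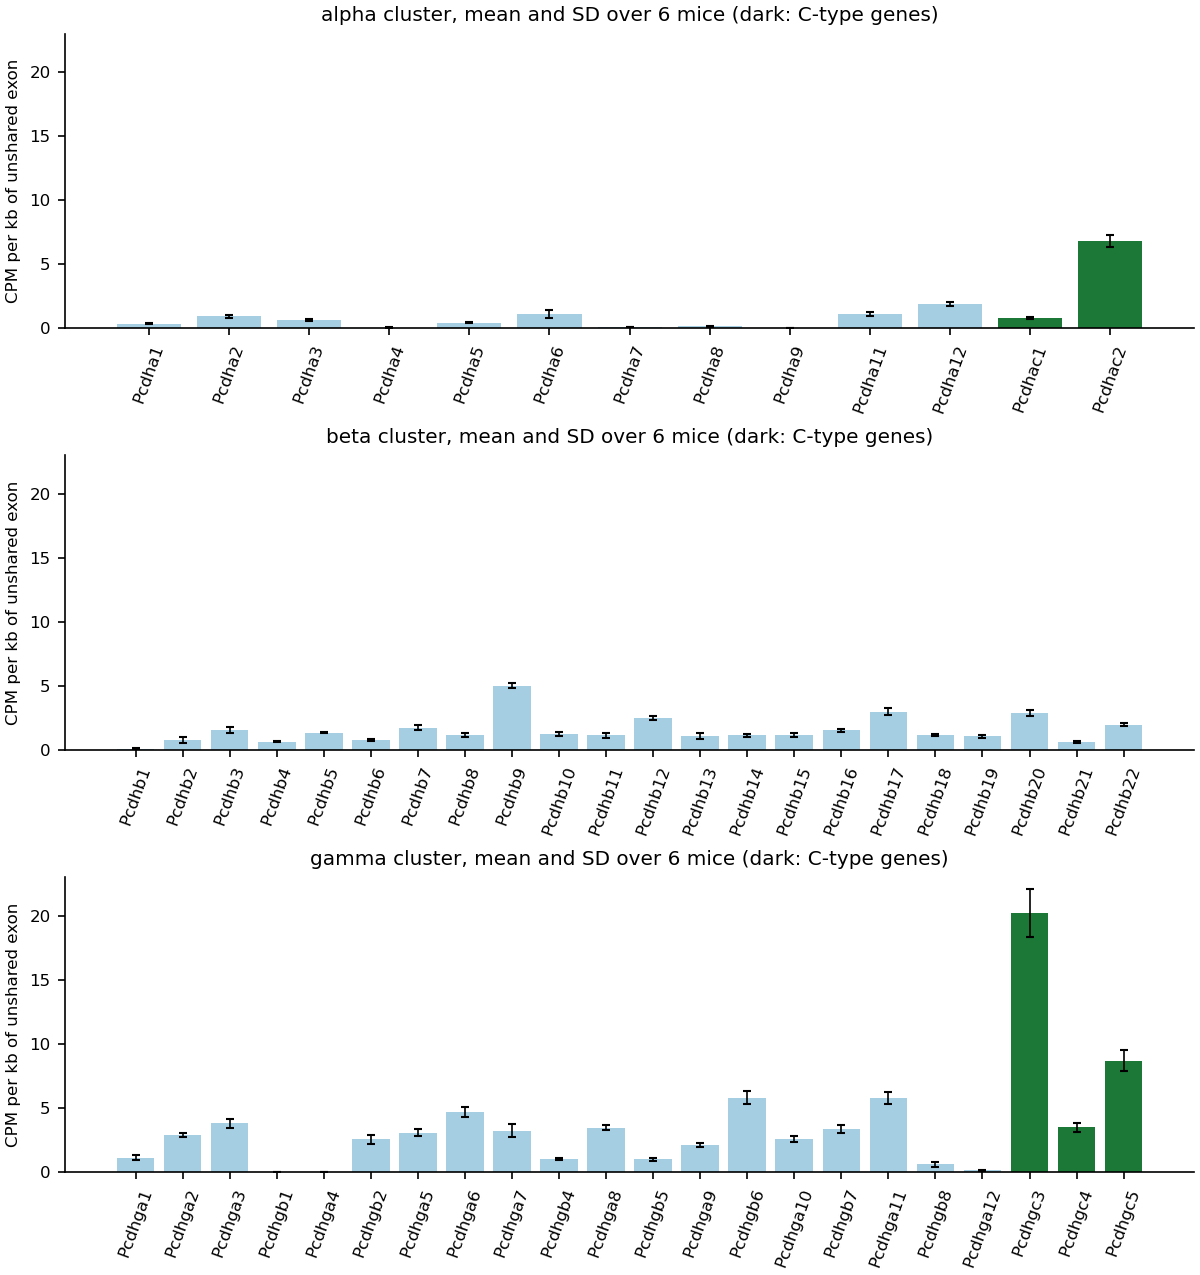
Mean level of each gene over 6 mice in CPM per kb of exon not shared on the same strand, in order along each cluster, with the SD as error bar and the C-type genes in dark green. Pcdhgc3 at 20.2, Pcdhgc5 at 8.67 and Pcdhac2 at 6.80 CPM per kb stand above every other gene, and Pcdhac1 does not.

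C-type genes made up 54.9% ± 2.03 of alpha CPM and 48.2% ± 1.01 of gamma CPM (SD, n = 6). Pcdhac2 alone was 49.9% of alpha CPM, and Pcdhgc3 and Pcdhgc5 were 27.4% and 16.0% of gamma CPM. Pcdhgc3 was also 16.0% of the CPM of all 57 genes. In the alpha cluster the share was 57.7%, 54.7% and 55.7% in control mice 2, 5 and 10 and 56.1%, 53.0% and 52.2% in PLDP mice 17, 22 and 26, so that 1 PLDP mouse lay within the control range and 2 below it. In the gamma cluster it was 47.9%, 49.0% and 46.8% in the control mice and 47.5%, 49.4% and 48.8% in the PLDP mice, with overlapping ranges.

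The diet comparison asked whether any clustered protocadherin differed between PLDP and control mice, by edgeR's quasi-likelihood test across all genes with the study's threshold of an unadjusted p under 0.05. With 3 mice per diet, permuting the labels of 1 gene exactly gives no two-sided p under 0.1, so p-values come only from the model fitted across all features. Of the 50 tested members, 1 passed: Pcdhga7, a gamma A-type gene, which fell. That is 2% of members, where 8.6% of the 18580 features tested passed in either direction and 3.69% passed as lower in PLDP mice. No member passed at an adjusted p under 0.05, which 0.0323% of all features did, and the smallest adjusted p among members was 0.538. At an unadjusted p under 0.05, DESeq2 called 0 members, against 4.98% of all features, and limma voom called 1, against 8.67%. For 0 of 50 members did all PLDP values lie on one side of all control values, against 14.2% of all features tested.

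Pcdhga7 had 11.5, 9.80 and 11.4 CPM in control mice 2, 5 and 10 and 8.74, 10.6 and 7.48 CPM in PLDP mice 17, 22 and 26. PLDP mouse 22 lay within the control range and the other two below it. The gene fell by 0.27 on the log2 scale (SE 0.12), with an edgeR unadjusted p of 0.0359 and an adjusted p of 0.538. Its call rested on few mice: the unadjusted p was 0.0543 by DESeq2, 0.111 without control mouse 2, 0.101 without control mouse 10, 0.0708 when PLDP mouse 17 was left out and 0.177 when PLDP mouse 26 was left out. The call was kept without control mouse 5 (log2 fold change -0.35, unadjusted p = 0.0180) and without PLDP mouse 22 (-0.42, unadjusted p = 0.00316). The fold change was negative in each of these fits and nearest to 0 without PLDP mouse 26, at -0.17.

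Over the 50 tested members, 19 fold changes were above 0 and 31 below. Their median log2 fold change was -0.028, or -0.0089 for alpha, -0.015 for beta and -0.059 for gamma genes, beside -0.00062 over all features. These medians moved with single mice, from -0.12 without PLDP mouse 22 to -0.0082 without PLDP mouse 17 for gamma, and the beta median was 0.033 when PLDP mouse 17 was left out and the alpha median 0.012 without control mouse 5. The median size of the change without its sign was 0.080 for members and 0.074 for all features. Standard errors were larger for members (median 0.13, range 0.072 to 0.36) than for all features (median 0.086), and members were also less abundant (median 5.95 CPM against 16.8 CPM). For 38 of the 50 members the 95% interval of the log2 fold change lay within 0.5 of 0 on both sides. For the other 12 the interval also held larger changes, the widest bounds being -0.93 for Pcdhga12 and 1.002 for Pcdhgb8.

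**Figure D3:**
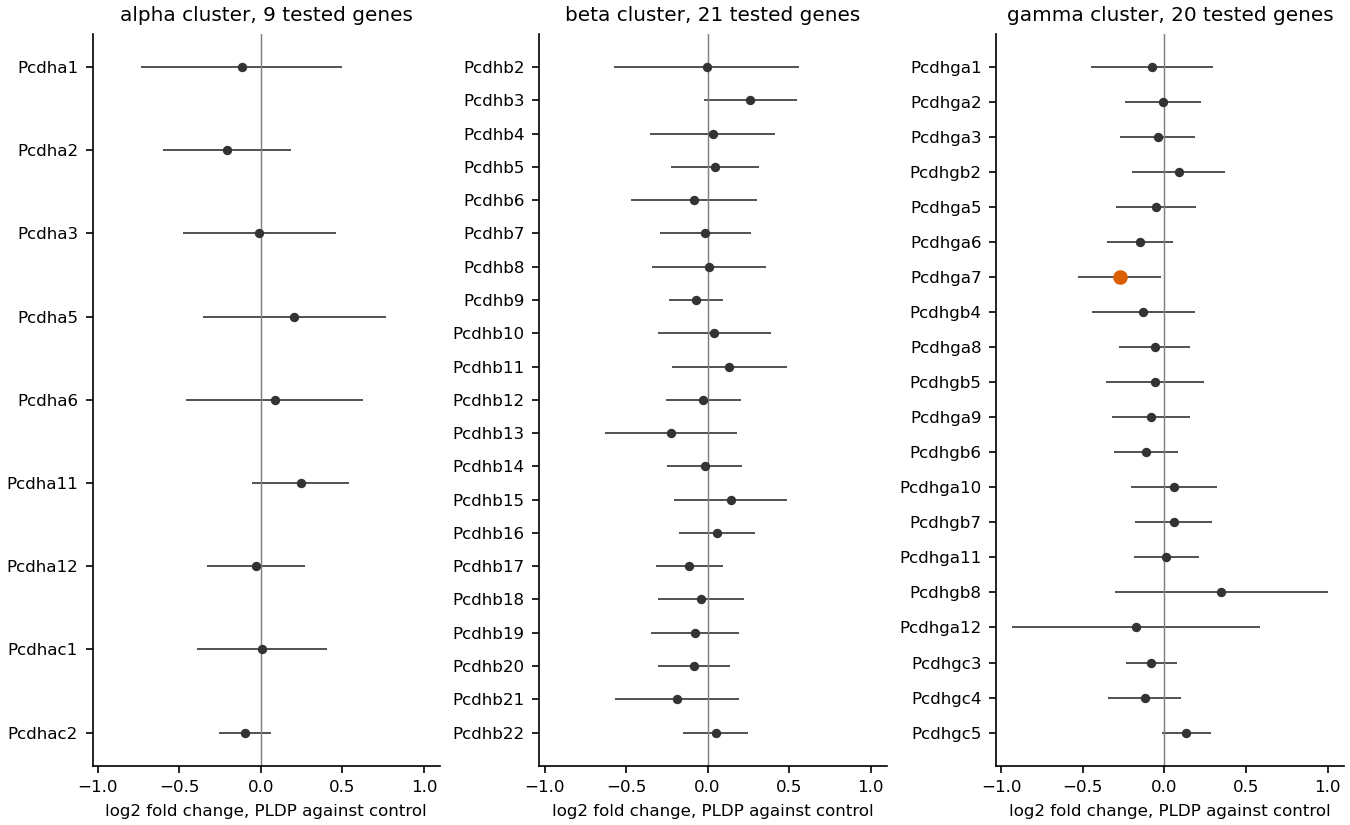
Log2 fold change of PLDP against control mice with its 95% interval for the 9 alpha, 21 beta and 20 gamma genes tested by edgeR, in order along each cluster, with orange for an unadjusted p under 0.05. Only the interval of Pcdhga7 leaves out 0, and the narrowest intervals belong to the abundant C-type genes Pcdhgc3, Pcdhgc5 and Pcdhac2.

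Pcdhgc5, Pcdhgc3 and Pcdhac2 had the smallest standard errors of the tested members, while those of Pcdhgc4 (0.11) and Pcdhac1 (0.19) were larger than for several other genes. Pcdhgc3 had 71.8, 68.6 and 70.8 CPM in control mice 2, 5 and 10 and 56.9, 75.5 and 66.8 CPM in PLDP mice 17, 22 and 26. The PLDP values spread on both sides of the controls, and the log2 fold change was -0.08 (SE 0.07, unadjusted p = 0.281 by edgeR). It was 0.02 without PLDP mouse 17 and -0.19 without PLDP mouse 22, the latter with an unadjusted p of 0.0104. Pcdhgc5, whose expression is known to begin late, after birth, had 37.8, 39.9 and 36.6 CPM in the control mice and 39.4, 47.1 and 38.6 CPM in the PLDP mice. PLDP mouse 22 was the highest of all, and the other two lay within the control range. Its log2 fold change was 0.13 (SE 0.07), with an unadjusted p of 0.0807 and an adjusted p of 0.631 by edgeR. Leaving out PLDP mouse 22 took the log2 fold change to 0.03 (unadjusted p = 0.625 by edgeR), while the unadjusted p was 0.0227 when PLDP mouse 17 was left out, 0.0281 when PLDP mouse 26 was left out and 0.0411 with no filter on low counts.

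Pcdhgc4, the gamma C-type gene known for its role in neuronal survival, had 11.9, 13.3 and 12.5 CPM in the control mice and 9.72, 12.96 and 12.03 CPM in the PLDP mice, with a log2 fold change of -0.12 (SE 0.11). Only PLDP mouse 17 was clearly below the control range, and leaving out 1 mouse gave -0.22 to -0.0090 on the log2 scale. Pcdhac2, known for its part in the spacing of serotonergic axons, had 22.9, 19.5 and 21.6 CPM in the control mice and 19.9, 20.1 and 19.6 CPM in the PLDP mice. All 3 PLDP values lay near the lowest control value, and the log2 fold change was -0.10 (SE 0.08, unadjusted p = 0.219 by edgeR), or -0.16 to -0.044 when 1 mouse was left out. Pcdhac1, its low neighbour, had 2.07, 2.09 and 2.04 CPM in the control mice and 2.23, 2.14 and 1.82 CPM in the PLDP mice, a log2 fold change of 0.0048 (SE 0.19). For these 5 genes the 95% bounds ran from -0.39 to 0.40 on the log2 scale. Markers of serotonin neurons, the cells whose axons need Pcdhac2, summed to 34.1 to 43.1 CPM in control mice and 34.4 to 41.0 CPM in PLDP mice, and 0 of 5 passed the unadjusted threshold by edgeR.

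Among the remaining alpha genes, Pcdha11 had 4.04, 4.26 and 5.48 CPM in the control mice and 5.25, 5.45 and 5.61 CPM in the PLDP mice. Control mouse 10 lay among the PLDP mice, and the log2 fold change of 0.24 (SE 0.14) had an unadjusted p of 0.101 by edgeR. Without that mouse the fold change was 0.39 (unadjusted p = 0.0188), and without control mouse 2 it was 0.16 (unadjusted p = 0.321). Pcdha2 had 2.41, 2.40 and 2.62 CPM in the control mice and 1.81, 2.18 and 2.46 CPM in the PLDP mice, and its log2 fold change was -0.21 (SE 0.19), or -0.31 to -0.10 when 1 mouse was left out. Pcdha1, the first gene of the cluster, had 0.72 to 1.07 CPM in control mice and 0.75 to 1.05 CPM in PLDP mice. Pcdha6 was the most variable of the well counted alpha genes among control mice, with 3.61, 2.36 and 1.36 CPM, a value chosen for mention after it was seen.

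Beta genes form recognition units with alpha and gamma proteins on the same membrane. The most abundant of them, Pcdhb9, had 15.6, 15.4 and 16.0 CPM in the control mice and 14.3, 15.5 and 14.97 CPM in the PLDP mice. These ranges overlapped, and the log2 fold change was -0.07 (SE 0.08). Pcdhb3 had 4.62, 5.49 and 5.72 CPM in the control mice and 5.53, 6.46 and 7.06 CPM in the PLDP mice. Only PLDP mouse 17 lay within the control range, and the log2 fold change of 0.26 (SE 0.13) had an unadjusted p of 0.0671 by edgeR. Without that mouse the unadjusted p was 0.0205, and it was 0.250 (fold change 0.18) without control mouse 2 and 0.230 (fold change 0.19) when PLDP mouse 26 was left out. Pcdhb13 had 4.91, 3.86 and 4.22 CPM in the control mice and 3.30, 4.95 and 2.67 CPM in the PLDP mice, with PLDP mouse 22 above and the other two below every control. Its log2 fold change was -0.23 (SE 0.19, unadjusted p = 0.255 by edgeR). It was -0.53 without PLDP mouse 22 (unadjusted p = 0.0107), -0.060 when PLDP mouse 26 was left out (unadjusted p = 0.750) and -0.13 without control mouse 2 (unadjusted p = 0.562). Pcdhb1, the first gene and the beta gene least like its relatives, stayed at 0.14 to 0.38 CPM in all mice. Pcdhb22, the last, had 12.3, 12.8 and 10.5 CPM in the control mice and 12.1, 12.5 and 12.2 CPM in the PLDP mice, a log2 fold change of 0.05 (SE 0.095).

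In the gamma cluster Pcdhga1, the first gene, had 3.22, 3.49 and 4.32 CPM in the control mice and 3.39, 4.19 and 2.78 CPM in the PLDP mice. The ranges overlapped, and the log2 fold change was -0.07 (SE 0.18). Pcdhgb8, annotated as a polymorphic pseudogene, had 1.40, 0.64 and 1.79 CPM in the control mice and 1.21, 1.68 and 1.98 CPM in the PLDP mice. It had the largest fold change of the tested members (0.35 on the log2 scale), with an SE of 0.31, and control mouse 5 alone stood apart below the others. Without control mouse 5 the log2 fold change was 0.015, and without control mouse 10 it was 0.67. Pcdhgb1 and Pcdhga4, which lie next to each other, were listed at 0 in all mice, while the genes on either side of them, Pcdhga3 and Pcdhgb2, had 8.32 to 11.1 and 5.67 to 8.47 CPM. In Pcdhga4 only 1570 of 4727 exonic bases are free of other genes on its strand. Whether the annotation used for counting held further models over Pcdhgb1, Pcdhga4 or Pcdha9 was not tested, so the zeros do not show that these genes are silent.

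The spread between mice of a diet differed between members. The variance of the counts within a diet was 1.51 times their mean in the median member (0.75 times for alpha, 1.44 times for beta and 1.98 times for gamma genes). Counting error alone gives 1 on average, and a lower median with 3 mice per diet. For the 5 C-type genes the median was 2.89 times, and it reached 13.9 times for Pcdhgc3 and 6.60 times for Pcdhgc5. At an equal relative spread this ratio rises with the level, so it does not rank members by relative spread. Median CPM was 2.31 for alpha, 5.81 for beta, 8.18 for gamma and 20.6 for C-type genes. The SD of Pcdhgc3 was 1.63 CPM in control and 9.31 CPM in PLDP mice, and that of Pcdhgc5 1.67 and 4.69 CPM. PLDP mouse 17 had the lowest value in 16 of the 50 tested members and in 8 of 20 gamma genes, and the highest in 3 members. PLDP mouse 22 had the highest value in 13 members and in 7 gamma genes, and the lowest in 2. Control mouse 10 also had the highest value in 13 members, 5 of them gamma genes, and PLDP mouse 26 had the lowest in 11. The median log2 deviation from the mean of the 6 mice over the gamma genes was -0.13 in PLDP mouse 17 and 0.11 in PLDP mouse 22. Summed gamma CPM accordingly had an SD of 25.9 in PLDP mice and of 3.88 in control mice. The same 2 mice were at the ends for the sums of 4 lists of other genes described below, so the order was not confined to the clusters. The high end was nearly tied for promoter regulators, with 1602.02 CPM in PLDP mouse 22 and 1601.82 CPM in control mouse 10. It was also nearly tied for other recognition molecules, with 500.6 CPM in PLDP mouse 22 and 500.4 CPM in PLDP mouse 26. The 12 protocadherins outside the clusters summed to 704 CPM in PLDP mouse 17, 813 CPM in PLDP mouse 22 and 759 to 767 CPM in the control mice. The 26 partner genes summed to 3749 CPM in PLDP mouse 17, 3920 CPM in PLDP mouse 22 and 3805 to 3847 CPM in the control mice.

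**Figure D4:**
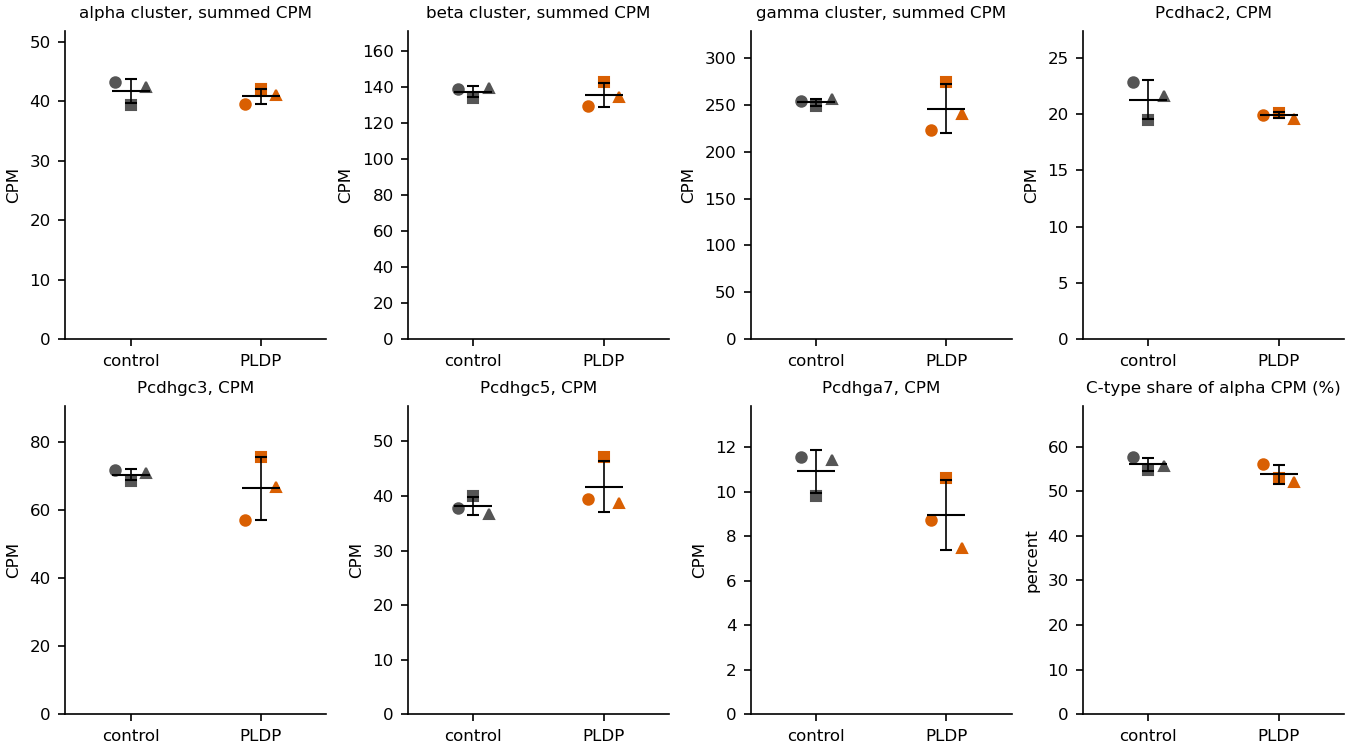
Summed CPM of each cluster, CPM of Pcdhac2, Pcdhgc3, Pcdhgc5 and Pcdhga7, and the C-type share of alpha CPM in percent, 1 point per mouse (circle, square and triangle for control mice 2, 5 and 10 and for PLDP mice 17, 22 and 26), with the mean as a line and the SD as error bar. The gamma sum spreads from 223.4 to 274.3 CPM among PLDP mice and from 248.6 to 256.2 CPM among control mice.

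Genes that act on the promoters of the clusters were compared in the same fit. Of 23 such genes (CTCF, cohesin and its loaders and releasers, DNA methylation enzymes and silencing factors), 1 passed the unadjusted threshold by edgeR, which 8.6% of all features did. Pds5b, a cohesin cofactor, had 92.0, 93.1 and 95.7 CPM in the control mice and 82.1, 90.2 and 88.8 CPM in the PLDP mice. It fell by 0.10 on the log2 scale (SE 0.05, unadjusted p = 0.0444, adjusted p = 0.564 by edgeR), and in 6 of 13 alternative fits the unadjusted p was above 0.05. Ctcf itself had 73.0, 75.9 and 72.3 CPM in the control mice and 72.0, 75.6 and 72.7 CPM in the PLDP mice. Smchd1, a chromatin protein that represses clustered protocadherin promoters, had 38.0, 38.7 and 43.3 CPM in the control mice and 35.7, 41.4 and 42.3 CPM in the PLDP mice. The log2 fold changes of these last 2 genes were -0.0061 (SE 0.05) and -0.0071 (SE 0.07), and their sign turned when single mice were left out.

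Of 26 genes for proteins that bind clustered protocadherins or carry their signal, 3 passed (against 8.6% of all features). Nlgn2, a postsynaptic adhesion protein of inhibitory synapses, had 232.0, 238.5 and 231.3 CPM in the control mice and 248.0, 260.2 and 254.2 CPM in the PLDP mice, and rose by 0.12 on the log2 scale (SE 0.04, unadjusted p = 0.00647, adjusted p = 0.363 by edgeR). Ptk2b, the kinase PYK2 that the alpha and gamma cytoplasmic tails inhibit, had 303.8, 303.3 and 316.1 CPM in the control mice and 320.9, 344.2 and 328.0 CPM in the PLDP mice, and rose by 0.11 (SE 0.04, unadjusted p = 0.0168). In both genes every PLDP mouse lay above every control mouse, as 14.2% of all features had values of the 2 diets that did not overlap. The unadjusted p of Ptk2b was above 0.05 in 3 of 13 alternative fits, and reached 0.103 without PLDP mouse 22. Pdcd10, an adaptor that binds gamma protocadherins, had 28.2, 32.3 and 27.1 CPM in the control mice and 28.2, 24.4 and 25.2 CPM in the PLDP mice, and fell by 0.17 (SE 0.08, unadjusted p = 0.0413), a call absent from 5 of 13 alternative fits, with an unadjusted p of 0.269 without control mouse 5.

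Of the 12 protocadherins outside the clusters 2 passed. Pcdh1 had 199.7, 190.6 and 199.9 CPM in the control mice and 211.5, 219.2 and 220.0 CPM in the PLDP mice, and rose by 0.14 (SE 0.04, unadjusted p = 0.00249). Pcdh7 had 102.6, 109.1 and 98.2 CPM in the control mice and 85.5, 100.3 and 98.2 CPM in the PLDP mice, and fell by 0.13 (SE 0.06, unadjusted p = 0.0478), a call absent from 4 of 13 alternative fits, with an unadjusted p of 0.245 when PLDP mouse 17 was left out. Of 8 other recognition molecules, Tenm2, a teneurin, passed with 71.0, 72.3 and 72.9 CPM in the control mice and 78.2, 79.6 and 86.7 CPM in the PLDP mice, a rise of 0.18 (SE 0.05, unadjusted p = 0.00272). In these 4 lists together 7 of 69 genes passed the unadjusted threshold by edgeR, a share near the 8.6% of all features. By DESeq2 4 passed (4.98% of all features) and by limma voom 8 (8.67%), and 0 had an adjusted p under 0.05 by edgeR.

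The 12 lists of region and cell type markers are read against the 8.6% of all features called. Markers of brainstem and spinal cord summed to 159.7 to 172.1 CPM in control mice and 87.3 to 123.8 CPM in PLDP mice, and 8 of 9 fell, 1 of them at an adjusted p under 0.05. Choroid plexus markers summed to 744.8 to 798.7 CPM in control mice and 584.2 to 740.2 CPM in PLDP mice, with 2 of 6 lower (Ttr and Folr1). Most of that sum is Ttr, and without it (a sum chosen after seeing the data) the other 5 summed to 65.6 to 70.2 CPM in control mice and 48.9 to 70.6 CPM in PLDP mice, which overlap. Markers of cortex and hippocampus summed to 2379 to 2442 CPM in control mice and 2531 to 2615 CPM in PLDP mice, with 2 of 5 higher (Camk2a and Nrgn). Lower calls were made for 2 of 5 oligodendrocyte markers and for 1 of 5 markers each of microglia, astrocytes and neurons (P2ry12, Aqp4 and Nefl), and higher calls for 2 of 5 endothelial markers and 1 of 5 markers of immature neurons. The other members of these lists were not called, and some had fold changes of the opposite sign. None of the 5 markers each of cerebellum, striatum and serotonin neurons was called by edgeR at an unadjusted p under 0.05. No marker in these lists was at 0. The part of these markers in the values of Pcdhga7, of Nlgn2, Ptk2b, Pcdh1 and Tenm2, and of the other calls above was not tested.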

How the data were processed

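Whole brain RNA of 6 mice, 3 per diet, had been sequenced by the study from stranded mRNA libraries as paired reads of 150 bases. The submitters' processing notes name cutadapt 2.9, HISAT2 2.2.0, featureCounts 2.6.0 and DESeq2 1.6.3, and the builds GRCm38 and GRCh38. Counting options are not given in the sources used here. The deposited values are raw counts per feature, made by the authors, with 60354 features per mouse, of which 54694 identifiers were found in GENCODE M21 (GRCm38), used for symbols, positions and exon lengths. Groups came from the labels.

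Counts were analysed with edgeR 4.0.16 in R 4.3.3. Features were kept by filterByExpr (minimum count 10, minimum total 15), libraries were scaled by TMM, and a model with a single term for diet was fitted and tested by quasi-likelihood (glmQLFit, glmQLFTest), with Benjamini-Hochberg adjustment over all features. The threshold of an unadjusted p under 0.05 is that of the study. The fit was tested on simulated data. Levels per kb used exon not shared with another gene on the same strand. The design as first written asked for exon free of any gene on either strand, which leaves Pcdhga10 with none, so that length became an alternative. It was chosen after seeing the data, as counts at Pcdhga10 showed that strand had been used. Variable exons were aligned pairwise within each cluster with Biopython 1.88.

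Named members were the C-type genes, those with an unadjusted p under 0.05, the highest and lowest per kb, the first and last of each cluster, and the 2 with the largest fold changes per cluster. Named genes of other lists were those with an unadjusted p under 0.05, at most 4 per list, and Ctcf and Smchd1. A few others are named as chosen after their values were seen or as neighbours. Members and lists were chosen with earlier results of these data known. Alternatives were other filters, scalings (RLE, upper quartile, library size), DESeq2 1.42.0, limma voom (3.58.1), leaving out each mouse and other lengths. No sequence is printed. All files and columns were used.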

Additional observations from a re-analysis of the deposited data

How the results depend on the processing

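Scaling hardly mattered for the clustered protocadherins: under RLE, upper-quartile and library-size scaling, 1 member passed and 0 had groups that did not overlap, and limma voom also called 1. Over all features, DESeq2 called 926 where edgeR called 1598. Members called by diet numbered 1 in the report. With no filter on low counts 2 of 54 tested were called (Pcdhga7 and Pcdhgc5), against 6.54% of all features. DESeq2 called 0 (4.98% of all features), and 0 to 4 were called when 1 mouse was left out. The count was 0 without control mouse 2 (where 5.95% of all features were called), 2 without PLDP mouse 17 (Pcdhb3 and Pcdhgc5, 12.5% of all features) and 4 without PLDP mouse 22 (Pcdhb13, Pcdhga6, Pcdhga7 and Pcdhgc3, or 8% of members against 8.18% of all features). Without control mouse 10 the member called was Pcdha11 (8.47% of all features) and without PLDP mouse 26 it was Pcdhgc5 (7.24% of all features). In the 4 lists of related genes, 7 calls became 4 by DESeq2 and 4 to 14 without 1 mouse, 4 without control mouse 2 or 5 and 14 without PLDP mouse 17, as the calls over all features went from 1598 to 1133, 1226 and 2365 in these fits. The cause was not tested.

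When 1 mouse was left out, log2 fold changes near 0 took either sign for Pcdhac1 (-0.052 to 0.080), Pcdhgc3 (-0.19 to 0.019), Pcdhb22 (-0.031 to 0.11), Pcdhga1 (-0.25 to 0.053), Ctcf (-0.030 to 0.015) and Smchd1 (-0.051 to 0.066). Median log2 fold changes ran from -0.051 to 0.012 for alpha, -0.048 to 0.033 for beta and -0.12 to -0.0082 for gamma genes. The summed gamma difference, PLDP minus control, was -6.76 CPM and ran from -20.9 to 4.61 CPM without 1 mouse.

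The C-type share of gamma CPM was 40.8% per unshared length in place of 48.2%. Median levels per kb moved with the length used: over the 11 alpha and 20 gamma genes with more than 1 count, C-type genes included, they were 0.38 and 1.74 with total exon length, and 3.47 for gamma with exon free on both strands, in place of 0.81 and 3.12. No paired analysis was possible because the labels give the 2 diets no mouse number in common. For 12 of the 50 tested members, with 70 to 1272 counts over the 6 mice, the 95% interval reached past 0.5 on the log2 scale, and the part of depth in this was not tested.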

Other observations

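Between the first and the last clustered protocadherin lie 27 other annotated genes with rows in the files, and 5 of them were tested. Taf7, a subunit of the general transcription factor TFIID whose gene stands between the beta and gamma clusters, was the only 1 to pass the unadjusted threshold, beside 8.6% of all features called and 3.69% called lower, and is named after its values were seen. It had 259, 255 and 233 counts in control mice 2, 5 and 10 and 191, 242 and 188 counts in PLDP mice 17, 22 and 26. Counts in this section are not scaled to library size, so their ranges are not compared between diets. PLDP mouse 22 had the deepest library (23938729 counts) and PLDP mouse 26 the shallowest (18797061 counts). Taf7 fell by 0.28 on the log2 scale after scaling (SE 0.10, unadjusted p = 0.00942, adjusted p = 0.406 by edgeR). The long noncoding RNA 3222401L13Rik of the same stretch had 67, 74 and 75 counts in the control mice and 61, 76 and 56 counts in the PLDP mice, and a log2 fold change of -0.18 (SE 0.16).

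Of these 27 genes, 7 had 0 counts in all 6 mice. They include Gm42416, Gm37013, Gm37388 and Gm38182, models on the same strand as the members that share exon with them. Gm42416 shares 2410 bases with Pcdha4. The zeros of these models, and the near absence of counts for Pcdha4, therefore do not show that these genes are silent. Antisense transcripts were present at low level. Gm26672 had 22 to 53 counts per mouse and a log2 fold change of 0.06 (SE 0.25), and BC037039 had 15 to 32 counts per mouse and a log2 fold change of 0.15 (SE 0.31).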
